A study of Mus musculus with 2 samples.

Results

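Interferon-gamma signals through a receptor, a pair of kinases, STAT and IRF transcription factors and SOCS inhibitors, and 8 mouse genes of that chain are described here: Ifngr1, Ifngr2, Jak1, Jak2, Stat3, Irf1, Socs1 and Socs3. They were chosen by gene symbol, and 8 of 8 were found among the 32285 genes counted. The cells came from orthotopic liver tumours of C57/BL6 mice labelled WT, grown from Hepa1-6, an established mouse hepatoma line. The anti-PD-1 group received an antibody that blocks the PD-1 checkpoint receptor of T cells, and the isotype group received the control antibody, which the design text calls IgG. Live CD45+ tumour-infiltrating leukocytes were sorted and read as 1 single-cell 3′ library per group, so no test between the groups was possible. The sources used here do not give the number of mice behind each library or the antibody doses. Treatment, animal and preparation cannot be told apart. Intervals below are 95% counting intervals and cover counting error only.

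As background, interferon-gamma binds IFNGR1, the ligand-binding chain, and recruits IFNGR2, the chain needed for signalling. JAK1 associates with IFNGR1 and JAK2 with IFNGR2, and the active kinases phosphorylate STAT proteins, which induce the transcription factor IRF1 and then chemokines, guanylate-binding proteins and antigen-processing genes. SOCS1 inhibits JAK activity as negative feedback on interferon receptors, SOCS3 does so mainly on receptors that signal through STAT3, such as the gp130 receptors, and STAT3 carries IL-6 and IL-10 signals in myeloid cells. In tumours, T and NK cells are the usual source of interferon-gamma, and myeloid cells respond to it.

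The promoters of 3 of the genes are shown because they hold the letters of interferon or STAT motifs, and because these include Irf1 and Socs1, the genes with the largest differences between the libraries. The 250 bases before each start were taken from RefSeq on GRCm38.p6, printed 5′ to 3′ on the gene's strand with motif matches in capitals.

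Irf1, chr11:53769764-53770013, plus strand: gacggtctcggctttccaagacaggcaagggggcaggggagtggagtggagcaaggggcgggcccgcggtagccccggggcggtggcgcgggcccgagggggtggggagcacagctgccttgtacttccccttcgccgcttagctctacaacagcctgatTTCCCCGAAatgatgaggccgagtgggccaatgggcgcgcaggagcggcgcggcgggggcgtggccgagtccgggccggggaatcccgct

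Socs1, chr16:10785537-10785786, minus strand: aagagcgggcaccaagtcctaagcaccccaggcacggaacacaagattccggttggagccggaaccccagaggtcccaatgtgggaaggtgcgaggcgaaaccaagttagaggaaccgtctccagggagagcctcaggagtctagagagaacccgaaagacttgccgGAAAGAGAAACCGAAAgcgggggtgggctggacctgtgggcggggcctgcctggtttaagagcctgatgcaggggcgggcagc

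Socs3, chr11:117969367-117969616, minus strand: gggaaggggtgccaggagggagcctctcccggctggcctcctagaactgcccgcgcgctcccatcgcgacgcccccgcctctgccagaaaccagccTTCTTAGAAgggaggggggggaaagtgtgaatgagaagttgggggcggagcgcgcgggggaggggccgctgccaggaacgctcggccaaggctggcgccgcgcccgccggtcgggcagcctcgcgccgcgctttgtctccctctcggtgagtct

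The letters of a gamma-activated site, TTCNNNGAA, the motif bound by STAT dimers, were searched on both strands. They matched once in Irf1, 90 to 82 bases before the start, and once in Socs3, 154 to 146 bases before it. The Socs3 window, taken before its RefSeq start, lies inside the gene span given further below, 117966079 to 117970047. The letters GAAANNGAAA, the core of an interferon-stimulated response element, matched at 2 overlapping places in Socs1, 83 to 74 and 77 to 68 bases before the start. All 8 genes matched the RefSeq table, with 9 promoters because Irf1 had 2. Of these 9 promoters, 2 held the first motif and 1 the second, against 7.02% and 2.98% of all 32851 promoters of the same length. The other promoters of the set held neither string in this window.

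Molecules were counted by unique molecular identifier (UMI), 72148493 over 10149 cell barcodes with anti-PD-1 and 67520433 over 9683 barcodes with isotype. After filters on depth, mitochondrial share and doublet score, 9711 anti-PD-1 and 9278 isotype cells were kept, with a median of 6303 and 6124 UMIs. Ptprc, which encodes CD45, had a UMI in 76.6% of anti-PD-1 and 75.3% of isotype cells. There were 140 barcodes that occurred in both libraries. The authors' cell types were not part of the files used here, so cells were placed in 16 gates by counts of marker genes, and each gate name stands for cells that are like that type by those markers. In the 14 gates with at least 50 cells in each library, the levels were compared; the gamma-delta T gate (30 anti-PD-1 and 39 isotype cells) and the B and plasma gate (49 and 51 cells) were too small. The largest gates held neutrophils (2240 anti-PD-1 and 2313 isotype cells), macrophages with C1q genes (1703 and 1633), C1q-low phagocytes (1687 and 1639) and classical monocytes (1447 and 1116). The summed level of 8 T cell markers lay between 3773 and 5008 CPM (counts per 1e6 UMIs of the gate) in the CD8, CD4, regulatory and other T gates, and at or below 10.2 CPM in the monocyte, macrophage, neutrophil and conventional and migratory dendritic cell (DC) gates.

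The 2 receptor genes were high in different immune cells, Ifngr1 in the T and NK gates and Ifngr2 in the myeloid and DC gates. Ifngr1 (chromosome 10, 19591949 to 19610229, plus strand; this and the gene positions below are mm10) was highest in the NK gate, at 977 CPM in the anti-PD-1 library and 983 CPM in the isotype library. Regulatory T cells followed with 939 and 971 CPM, other T cells with 749 and 773 CPM, CD8 T cells with 657 and 541 CPM, and CD4 T cells with 534 and 580 CPM. Ifngr1 was lower in myeloid gates, from 406 CPM (anti-PD-1) and 388 CPM (isotype) in cDC2 to 172 and 176 CPM in macrophages, 173 and 145 CPM in neutrophils and 138 and 134 CPM in migratory DCs. In the order of the gates by level, 9 of the 13 pairs of neighbours did not overlap in the values of their 2 libraries. Macrophages and neutrophils were among the 4 pairs that did.

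Ifngr2 (chromosome 16, 91547072 to 91565623, plus strand) was instead higher in the myeloid and DC gates than in the T and NK gates. It was highest in non-classical monocytes, at 139 CPM in the anti-PD-1 library and 124 CPM in the isotype library, and in classical monocytes, at 123 and 114 CPM. Under a stricter gate or after thinning the highest gate was plasmacytoid DCs, at 98.2 and 128 CPM without these changes. Macrophages had 105 and 88.0 CPM, migratory DCs 102 and 78.4 CPM, and neutrophils 67.7 and 49.5 CPM. In the CD8 T gate Ifngr2 stood at 7.59 and 5.45 CPM, from 18 anti-PD-1 and 4 isotype UMIs. CD4 T cells had 7.18 and 11.98 CPM, other T cells 13.3 and 19.7 CPM, and regulatory T cells 16.6 and 6.27 CPM. In the NK gate, 7 UMIs were counted in the anti-PD-1 library (13.5 CPM) and 0 in the isotype library, where 3 UMIs would have been 6.11 CPM. General monocyte and macrophage markers summed to 1234 CPM (anti-PD-1) and 267 CPM (isotype) in the NK gate and 1642 and 244 CPM in regulatory T cells. They summed to 918 and 256 CPM in CD8 T, 680 and 620 CPM in CD4 T and 980 and 1171 CPM in other T cells. Their part in these Ifngr2 values was not tested. Every T and NK gate compared thus lay below every myeloid and DC gate in both libraries, but within these groups the order was loose, since 10 of 13 neighbouring gates overlapped.

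The share of cells with Ifngr2 was read beside depth. At least 1 Ifngr2 UMI was seen in 6.25% of anti-PD-1 and 5.88% of isotype CD8 T cells, whose median depth was 10378 and 8094 UMIs. In macrophages the share was 52.0% and 48.7%, at a median of 7783 and 8873 UMIs. The regulatory T, other T and NK gates and isotype CD4 T cells were shallower than macrophages, with medians from 5679 to 6890 UMIs. No gate is known to lack these genes entirely, so the share that free RNA alone would give was not measured. After thinning each cell to 1000 UMIs, 10.2% (interval 8.84% to 11.8%) of anti-PD-1 and 8.66% (7.34% to 10.1%) of isotype macrophages had a UMI. These thinned shares are not comparable with the unthinned shares above, and thinned shares of the T and NK gates are not given here. Over the 14 gates, log2 levels of the receptor genes correlated at Pearson r = -0.81. The gates share 2 libraries and differ in depth, so this is a description. Within the myeloid and DC gates the orders were not opposite, as non-classical monocytes stood above macrophages and neutrophils for both genes. The gamma-delta T gate, too small for comparison, had Ifngr2 at 72.1 CPM (anti-PD-1) and 61.8 CPM (isotype), from 12 and 14 UMIs, and Ifngr1 at 908 and 702 CPM.

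**Figure D1:**
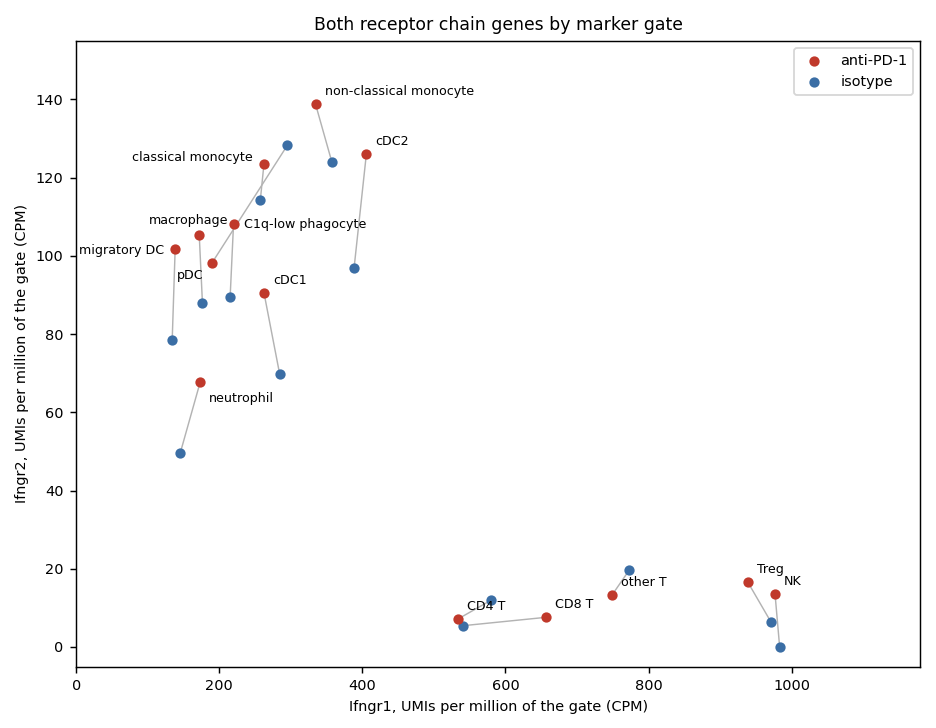
Level of Ifngr2 (vertical axis, CPM) against Ifngr1 (horizontal axis, CPM) in 14 marker gates; red points are the anti-PD-1 library, blue points the isotype library, and a line joins the libraries of a gate. T and NK gates lie at the lower right, with Ifngr2 at or below 19.7 CPM, and myeloid and DC gates at the upper left, with Ifngr2 at or above 49.5 CPM. Levels of different genes are not comparable in height, since a 3′ UMI count depends on the transcript end.

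The kinases differed from each other in where they were high. Jak1 (chromosome 4, 101152367 to 101265282, minus strand), the kinase of IFNGR1, was highest in NK cells, at 494 CPM in the anti-PD-1 and 456 CPM in the isotype library. The 4 T cell gates compared lay between 218 and 260 CPM (anti-PD-1) and between 245 and 304 CPM (isotype). Neutrophils had 212 and 195 CPM, the highest of the myeloid gates, and cDC1 had 86.4 and 63.1 CPM. Raver2 overlaps Jak1 on the opposite strand and the pseudogene Gm12785 on the same strand, so reads from these could not be separated with certainty. Jak2 (chromosome 19, 29251828 to 29313080, plus strand), the kinase of IFNGR2, was highest in migratory DCs, at 437 and 442 CPM. The other conventional DC gates came next, cDC2 with 243 and 263 CPM and cDC1 with 210 and 230 CPM. NK cells, first for Jak1, were next to last for Jak2, with 71.4 and 59.0 CPM, and overlapped with macrophages, the last, with 68.1 and 57.9 CPM. For Jak2, 4 of 13 neighbouring gates overlapped, and for Jak1 8.

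Stat3 (chromosome 11, 100885098 to 100939540, minus strand), the transcription factor of IL-6 and IL-10 signals, overlaps Stat5a on the opposite strand. Its order resembled that of Jak1 (r = 0.80 over the 14 gates). NK cells had 519 CPM (anti-PD-1) and 584 CPM (isotype), regulatory T cells 399 and 389 CPM, and migratory DCs 354 and 307 CPM. Macrophages had the lowest mean, 121 and 99.1 CPM, and overlapped with C1q-low phagocytes at 123 and 109 CPM. Irf1 (chromosome 11, 53770014 to 53778374, plus strand), a transcription factor induced by interferon-gamma, overlaps Gm17334 on the opposite strand. It was highest in migratory DCs, at 407 CPM (anti-PD-1) and 396 CPM (isotype). Non-classical monocytes, at 308 and 213 CPM, overlapped with plasmacytoid DCs, at 241 and 226 CPM. Of the 13 pairs of neighbouring gates, 11 overlapped for Irf1, so no order is read below migratory DCs.

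The inhibitors were high in different cells. Among the 14 gates compared, Socs1 (chromosome 16, 10782240 to 10785536, minus strand), the feedback inhibitor of interferon receptors, was highest in migratory DCs and other T cells. Migratory DCs had 124 CPM (anti-PD-1) and 110 CPM (isotype) and other T cells 127 and 105 CPM, gates that overlapped. The gamma-delta T gate, too small for comparison, stood higher, at 252 CPM (anti-PD-1) and 199 CPM (isotype), from 42 and 45 UMIs. CD4 T cells had 105 and 112 CPM, while macrophages had 43.3 and 22.1 CPM. Socs3 (chromosome 11, 117966079 to 117970047, minus strand), the inhibitor of gp130-type receptors, was highest in the monocyte and neutrophil gates. Non-classical monocytes had 915 CPM (anti-PD-1) and 935 CPM (isotype), classical monocytes 904 and 816 CPM, and neutrophils 955 and 709 CPM. C1q-low phagocytes had 631 CPM (anti-PD-1) and 555 CPM (isotype), macrophages 505 and 414 CPM, and plasmacytoid DCs 352 and 366 CPM. The 4 T cell gates had between 107 and 142 CPM in the anti-PD-1 library and between 109 and 152 CPM in the isotype library. Within the conventional DCs, cDC2 had 610 and 627 CPM and cDC1 had 170 and 184 CPM. For Socs1 12 of 13 neighbouring gates overlapped, so only its ends are read, and for Socs3 4. The correlation of Socs1 with Socs3 over the 14 gates was -0.80, and that of Socs3 with Ifngr2 was 0.79.

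**Figure D2:**
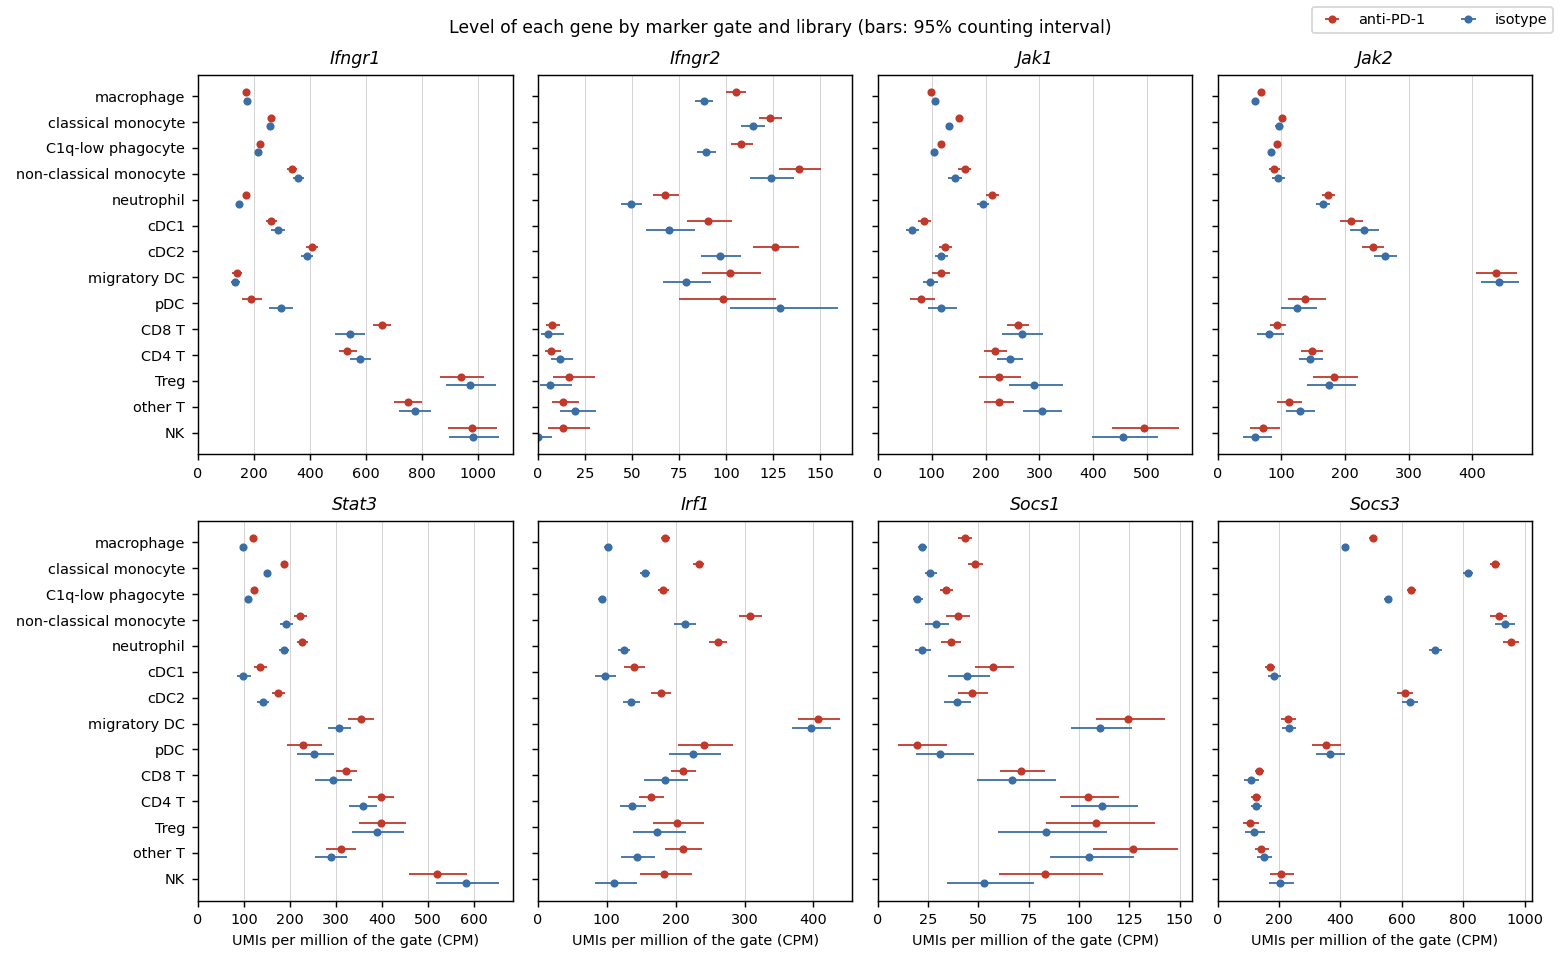
Level of each of the 8 genes in CPM (horizontal axis) in 14 marker gates (rows); red points with bars are the anti-PD-1 library and blue points with bars below them the isotype library, and bars are exact Poisson 95% intervals. Ifngr1 and Jak1 are highest in the NK row, Jak2 and Irf1 in the migratory DC row, Socs1 in the migratory DC and other T rows, and Socs3 in the monocyte and neutrophil rows.

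Of the 4718 genes that reached 50 CPM in some gate, those whose pattern over the 14 gates was most like that of each gene were named by their correlation of log2(CPM + 10). Ifngr1 went with Sptbn1 (r = 0.96), Klhdc2 (0.96) and Prkch (0.95), and Ifngr2 with Gpx1 (0.98), Ctsz (0.98) and Trim25 (0.97). Jak1 went with Ddx58 (0.96), which encodes the RNA sensor RIG-I, Pitpnc1 (0.95) and Heca (0.92). Jak2 had weaker likenesses, Cmtr1 (0.88), Tbc1d4 (0.87) and Wnk1 (0.87). Stat3 went with Sptan1 (0.95), Arhgap45 (0.94) and Tprgl (0.94), and Irf1 with Cep350 (0.86), Prr14 (0.86) and Eno3 (0.84). Eno3 was itself a marker of the non-classical monocyte gate, so its pattern over the gates was partly set by the gating. Socs1 went with Aebp2 (0.92), Tor1aip2 (0.92) and Herc6 (0.92), and Socs3 with Emilin2 (0.98) and Tgm2 (0.97).

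Between the libraries, Irf1 and Socs1 were the genes of the set with the largest differences, and both were higher with anti-PD-1 in phagocytes. A difference was counted as called when it reached 1.5-fold, and only genes with 50 or more UMIs in the gate, libraries summed, were eligible. Of the 106 gene and gate pairs that met this minimum, 9 were called higher with anti-PD-1 and 1 lower. Irf1 made up 4 of the 9 and Socs1 5. In the macrophage gate 2 of 8 genes were called higher, where 3.18% of all genes were. Of the 8 genes, 1 was called higher in classical monocytes (2.18% of all genes), 2 in C1q-low phagocytes (3.12%) and 2 in neutrophils (3.59%). In the NK gate 2 of 7 were called higher, where 8.34% of all genes were.

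No gene of the set was called higher in the other 9 gates. There the share of all genes called higher was 3.71% in non-classical monocytes, 9.06% in cDC1, 5.45% in cDC2, 3.5% in migratory DCs and 8.16% in plasmacytoid DCs. In the T cell gates it was 11.3% for CD8 T, 7.71% for CD4 T, 8.31% for regulatory T and 12.8% for other T cells. The share called lower was 1.43% in non-classical monocytes, 2.0% in cDC1, 2.0% in cDC2, 3.12% in migratory DCs, 3.94% in CD8 T, 3.72% in CD4 T, 4.47% in other T and 4.6% in NK cells, and no gene of the set was called lower there. Counted over all kept cells, Irf1 had 213 CPM with anti-PD-1 and 134 CPM with isotype, and Socs1 50.2 and 33.8 CPM.

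Irf1 stood at 185 CPM in macrophages of the anti-PD-1 library and 101 CPM in those of the isotype library, a log2 ratio of 0.87 (0.78 to 0.96). C1q-low phagocytes had 182 and 92.7 CPM, a log2 ratio of 0.97 (0.87 to 1.08). Neutrophils had 261 and 125 CPM, a log2 ratio of 1.06 (0.93 to 1.19). Classical monocytes had 233 and 156 CPM, and their log2 ratio of 0.58 (0.50 to 0.67) fell just short of 1.5-fold. It was 0.35 after thinning to 1000 UMIs. The ratio stood above that of 99.0% of genes in macrophages, 99.3% in C1q-low phagocytes, 99.5% in neutrophils and 97.8% in classical monocytes.

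Irf1 in the remaining gates was below the ratio of macrophages. Non-classical monocytes had 308 CPM (anti-PD-1) and 213 CPM (isotype), a log2 ratio of 0.53 (0.40 to 0.66). The ratio was 0.52 (0.24 to 0.79) in cDC1, 0.40 (0.22 to 0.58) in cDC2 and 0.54 (0.23 to 0.85) in other T cells. Under other settings the ratio ran from 0.05 to 1.02 in cDC1 and from 0.21 to 1.02 in cDC2. In isotype cDC1, 1 cell held 33 of the 162 Irf1 UMIs. NK cells had 183 and 110 CPM, from 95 and 54 UMIs, a log2 ratio of 0.74 with an interval above 0, which was 0.51 when each cell's own CPM was averaged. T cell markers summed to 529 CPM in anti-PD-1 and 727 CPM in isotype cells of the NK gate. Classical monocyte markers there summed to 1309 and 794 CPM, and general monocyte and macrophage markers to 1234 and 267 CPM. The part of these in the Irf1 and Socs1 ratios of NK cells was not tested. In migratory DCs, where Irf1 was highest, the libraries had 407 and 396 CPM, a log2 ratio of 0.04 (-0.11 to 0.19). The ratio was above 0 in 14 of 14 gates. Exceptions under other settings were migratory DCs, at -0.13 with a stricter gate and -0.07 with averaged cells, and plasmacytoid DCs, at -0.02 without barcodes found in both libraries and just under 0 with TMM scaling.

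A ratio above 0 was common among all genes. It was found for 62.9% of genes in macrophages, 61.3% in classical monocytes, 65.6% in C1q-low phagocytes, 62.1% in non-classical monocytes and 58.7% in neutrophils. In the DC gates it was 68.3% for cDC1, 66.1% for cDC2, 55.4% for migratory and 57.3% for plasmacytoid DCs. In lymphoid gates it was 61.4% for CD8 T, 58.7% for CD4 T, 52.8% for regulatory T, 62.6% for other T and 51.2% for NK cells. Over the 106 pairs of the set it was 76. The interval lay above 0 in 43 of these 106 pairs and below 0 in 4, where over all genes and gates, not matched for level, it lay above 0 in 14.5% of pairs and below 0 in 6.63%.

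The share of cells with Irf1 moved with its level. After thinning to 1000 UMIs, Irf1 was seen in 15.3% (13.6% to 17.1%) of anti-PD-1 macrophages and in 8.73% (7.39% to 10.2%) of isotype macrophages. C1q-low phagocytes had 14.2% and 9.03%, and neutrophils 15.2% and 9.44%, with intervals that did not overlap. Without thinning the shares were 51.6% and 41.7% in macrophages, 46.8% and 34.9% in C1q-low phagocytes, and 24.4% and 17.0% in neutrophils. Thinning left out 4 anti-PD-1 and 17 isotype macrophages, 5 and 23 C1q-low phagocytes, and 171 and 226 neutrophils.

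Socs1 was the other gene that differed in phagocytes. It stood at 43.3 CPM in anti-PD-1 macrophages and 22.1 CPM in isotype macrophages, a log2 ratio of 0.97 (0.78 to 1.16). Classical monocytes had 48.4 and 26.2 CPM, a log2 ratio of 0.89 (0.68 to 1.09). C1q-low phagocytes had 33.9 and 19.6 CPM, a log2 ratio of 0.79 (0.56 to 1.02), and neutrophils 36.3 and 22.1 CPM, a log2 ratio of 0.71 (0.39 to 1.04). The NK gate had 83.0 and 52.9 CPM, from 43 and 26 UMIs, and its log2 ratio of 0.65 had an interval of -0.09 to 1.41, which spans 0, and was 0.42 under a stricter gate. In the 4 compared gates where Socs1 was highest the intervals spanned 0. The log2 ratio was 0.17 (-0.11 to 0.46) in migratory DCs, 0.27 (-0.10 to 0.66) in other T cells, -0.09 (-0.39 to 0.21) in CD4 T cells and 0.37 (-0.22 to 0.98) in regulatory T cells. The thinned share of cells with Socs1 was 3.41% (2.60% to 4.39%) in anti-PD-1 and 2.104% (1.46% to 2.93%) in isotype macrophages, and these intervals overlap.

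Markers of other cells in these gates were read beside the ratios. The summed level of 10 neutrophil markers was 1026 CPM (anti-PD-1) and 1283 CPM (isotype) in macrophages, 1172 and 1568 CPM in C1q-low phagocytes, and 954 and 2684 CPM in classical monocytes, with no marker at 0. Without cells that had UMIs of at least 4 neutrophil markers (8.15% of anti-PD-1 and 12.8% of isotype classical monocytes), the log2 ratio was 0.56 for Irf1 and 0.93 for Socs1 in classical monocytes. In macrophages and C1q-low phagocytes it was 0.85 and 0.95 for Irf1 and 0.97 and 0.80 for Socs1. Classical monocyte markers summed to 2654 CPM in anti-PD-1 and 1778 CPM in isotype macrophages, and the part of this in the ratios was not tested. Of the 8 T cell markers, 2 were at 0 in anti-PD-1 and 1 in isotype macrophages, and their sum was 1.76 and 2.07 CPM. In the neutrophil gate, cells with immature granule genes made up 2.90% (anti-PD-1) and 3.89% (isotype), and without them the log2 ratio was 1.04 for Irf1 and 0.80 for Socs1.

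Receptor, kinase and Stat3 differences were smaller. Ifngr2 had 105 CPM in anti-PD-1 and 88.0 CPM in isotype macrophages, a log2 ratio of 0.26 (0.15 to 0.37), and in neutrophils 67.7 and 49.5 CPM, a log2 ratio of 0.45 (0.23 to 0.67). Its ratio was above 0 in 8 of the 9 gates with enough UMIs, with an interval above 0 in 7. One of these was cDC1 at 0.38, which was -0.69 after thinning. Over all genes and gates, not matched for level, the interval lay above 0 in 14.5% of pairs. Ifngr1 lay close in phagocytes, with a log2 ratio of -0.04 (-0.12 to 0.04) in macrophages and 0.03 (-0.05 to 0.11) in C1q-low phagocytes, and 0.25 (0.12 to 0.39) in neutrophils. CD8 T cells had a log2 ratio of 0.28 (0.12 to 0.44), which was -0.011 after thinning. In plasmacytoid DCs, Ifngr1 had 190 CPM (anti-PD-1) and 295 CPM (isotype), the 1 pair of the set called lower, where 5.22% of all genes were called lower. This log2 ratio of -0.64 (-0.98 to -0.30) rests on 116 and 191 UMIs in 54 and 70 cells, and was -0.14 under a stricter gate and -0.50 when each cell's own CPM was averaged.

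Jak1 had log2 ratios on both sides of 0. They were 0.18 (0.09 to 0.28) in classical monocytes and 0.45 (0.11 to 0.80) in cDC1, and -0.44 (-0.69 to -0.19) in other T cells, which had 224 CPM (anti-PD-1) and 304 CPM (isotype). In regulatory T cells Jak1 had 225 and 290 CPM, a log2 ratio of -0.37 (-0.72 to -0.02). General monocyte and macrophage markers in that gate summed to 1642 and 244 CPM, and their part in this ratio was not tested. Macrophage markers in the cDC1 gate summed to 36.3 CPM (anti-PD-1) and 289 CPM (isotype), and migratory DC markers to 342 and 600 CPM. The part of these in the Jak1, Stat3 and Irf1 ratios of cDC1 was not tested. Jak2 differed by no more than 0.27 on the log2 scale in any gate, with an interval above 0 in macrophages (0.23, 0.10 to 0.37) and C1q-low phagocytes (0.16, 0.04 to 0.28). Stat3 had an interval above 0 in 8 of 14 gates, all myeloid or DC, with log2 ratios from 0.18 in C1q-low phagocytes to 0.45 in cDC1. Over all genes and gates, not matched for level, this held for 14.5% of pairs. In these gates the Stat3 ratio stood above that of 70.3% to 91.2% of genes. In the T and NK gates it ran from -0.17 in NK cells to 0.15 (-0.01 to 0.31) in CD4 T cells, with intervals that spanned 0. In migratory DCs the Stat3 ratio was 0.21, and -0.39 after thinning. Classical monocytes had 188 CPM of Stat3 with anti-PD-1 and 150 CPM with isotype, a log2 ratio of 0.32 (0.23 to 0.41).

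Socs3, the most counted of the inhibitors, had narrow intervals. Neutrophils had 955 CPM in the anti-PD-1 and 709 CPM in the isotype library, a log2 ratio of 0.43 (0.37 to 0.49), which was 0.33 without cells bearing immature granule genes. Macrophages had 505 and 414 CPM, a log2 ratio of 0.28 (0.24 to 0.33), and non-classical monocytes 915 and 935 CPM, a ratio of -0.03 (-0.10 to 0.04). The ratio was above 0 in 7 of 14 gates for Socs3, and in 12 of 13 for Socs1, plasmacytoid DCs having too few Socs1 UMIs.

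**Figure D3:**
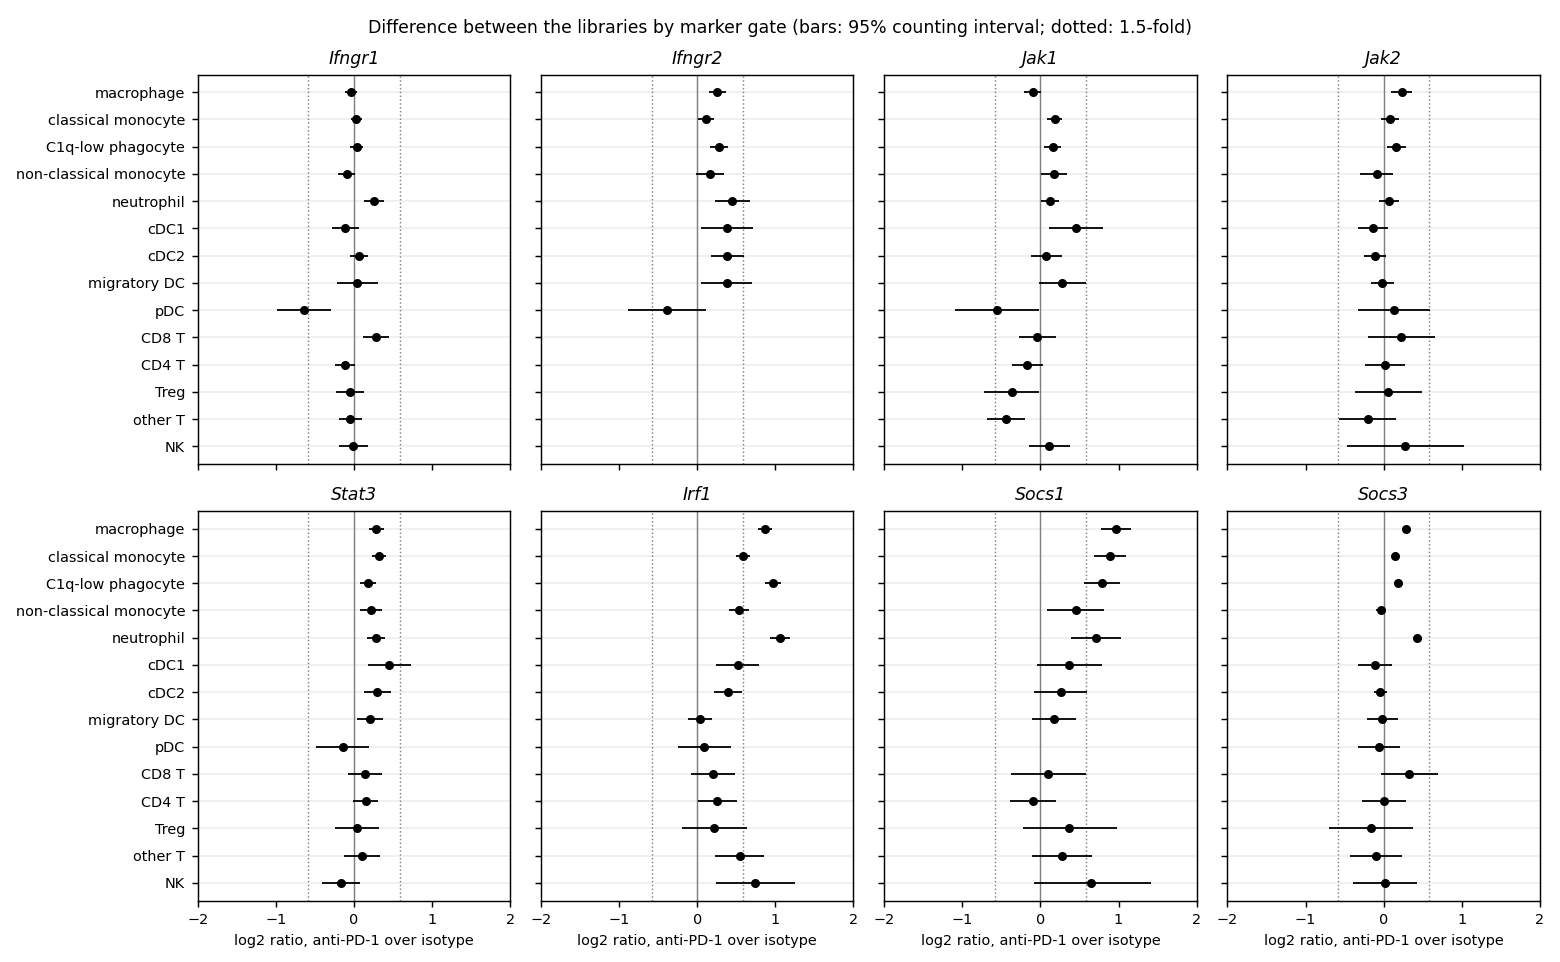
Log2 ratio of CPM, anti-PD-1 over isotype (horizontal axis), for each of the 8 genes in the marker gates (rows); points are ratios, bars are 95% counting intervals, dotted lines mark 1.5-fold, and rows with under 50 UMIs are left blank. Irf1 and Socs1 lie to the right of 0 in the macrophage, monocyte, C1q-low phagocyte and neutrophil rows, and Ifngr1 and Jak2 lie near 0 in most rows.

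To see how the genes varied among cells of one gate, cells were put in 3 bins of equal size over both libraries by the share of their UMIs in 21 interferon-gamma response genes, none of them in the set of 8. These included guanylate-binding proteins (Gbp2 to Gbp7), immunity-related GTPases (Irgm1, Igtp, Iigp1), the chemokine genes Cxcl9 and Cxcl10, and Cd274, which encodes PD-L1. The high bin held 42.1% of anti-PD-1 and 24.2% of isotype macrophages, 37.6% and 27.8% of classical monocytes, 38.2% and 28.4% of C1q-low phagocytes, and 38.7% and 28.1% of neutrophils. A gene was counted as higher in the high bin when its interval lay above that of the low bin in both libraries. This held for 5 of 8 genes in macrophages, 2 in classical monocytes, 4 in C1q-low phagocytes and 4 in neutrophils. Among all genes outside the response list, not matched for level, it held for 7.55%, 4.57%, 6.09% and 9.24% in these gates. The 15 gene and gate pairs were Irf1 and Socs1 in 4 of 4 gates each, Jak2 and Socs3 in 3 each (macrophages, C1q-low phagocytes and neutrophils), and Ifngr2 in 1, the macrophages.

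Within both libraries, Socs1 and Irf1 had the steepest differences over the bins. In macrophages, the log2 ratio of the high over the low bin for Socs1 was 2.73 (2.28 to 3.21) with anti-PD-1 and 2.09 (1.68 to 2.53) with isotype. For Irf1 it was 1.87 (1.69 to 2.06) and 1.70 (1.51 to 1.89). In neutrophils Irf1 had the steeper difference, 2.53 (2.30 to 2.78) and 2.24 (1.97 to 2.53), against 1.81 and 1.40 for Socs1. Ifngr1 went the other way in macrophages, with -0.61 (-0.75 to -0.46) and -0.38 (-0.53 to -0.23), and in classical monocytes, with -0.35 in both libraries. Jak2 in neutrophils had 221 CPM in the high and 127 CPM in the low bin with anti-PD-1, and 225 and 130 CPM with isotype. The limits of the bins were the same for both libraries, and the median depth of a bin lay between 7413 and 9541 UMIs in macrophages.

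Between the libraries, Socs1 had an interval above 0 in the high bin of each of the 4 gates. There, macrophages had 78.7 CPM with anti-PD-1 and 46.9 CPM with isotype, a log2 ratio of 0.75 (0.50 to 1.00). In the low bin they had 11.9 and 10.98 CPM, a log2 ratio of 0.11 (-0.48 to 0.69), and in the middle bin 16.6 and 16.5 CPM, a log2 ratio of 0.01 (-0.46 to 0.47). The high bin log2 ratio of Socs1 was 0.93 (0.67 to 1.19) in classical monocytes, 1.21 (0.89 to 1.53) in C1q-low phagocytes and 0.82 (0.34 to 1.32) in neutrophils. In the middle bin classical monocytes had 25.8 CPM with anti-PD-1 and 18.3 CPM with isotype, a log2 ratio of 0.50 (0.06 to 0.94), and neutrophils a log2 ratio of 0.08 (-0.55 to 0.69). In the low bin the intervals of these 3 gates spanned 0, with log2 ratios of -0.44, -0.10 and 0.42. Socs1 was lower with anti-PD-1 in the middle bin of C1q-low phagocytes, -0.90 (-1.48 to -0.33), from 39 anti-PD-1 and 83 isotype UMIs.

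Irf1 differed between the libraries in every bin of the 4 gates. In low-bin macrophages it had 77.0 CPM with anti-PD-1 and 57.1 CPM with isotype, a log2 ratio of 0.43 (0.20 to 0.66), and in high-bin macrophages 283 and 185 CPM, a ratio of 0.61 (0.48 to 0.74). Over the 12 bins the log2 ratio ran from 0.37 (0.17 to 0.58) to 1.11 (0.96 to 1.26), both in C1q-low phagocytes. The bins are not matched in response at their top: the response genes summed to 7160 CPM in anti-PD-1 and 5531 CPM in isotype macrophages of the high bin, and to 260 and 268 CPM in the low bin. The part of that difference in the high-bin ratios was not tested.

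**Figure D4:**
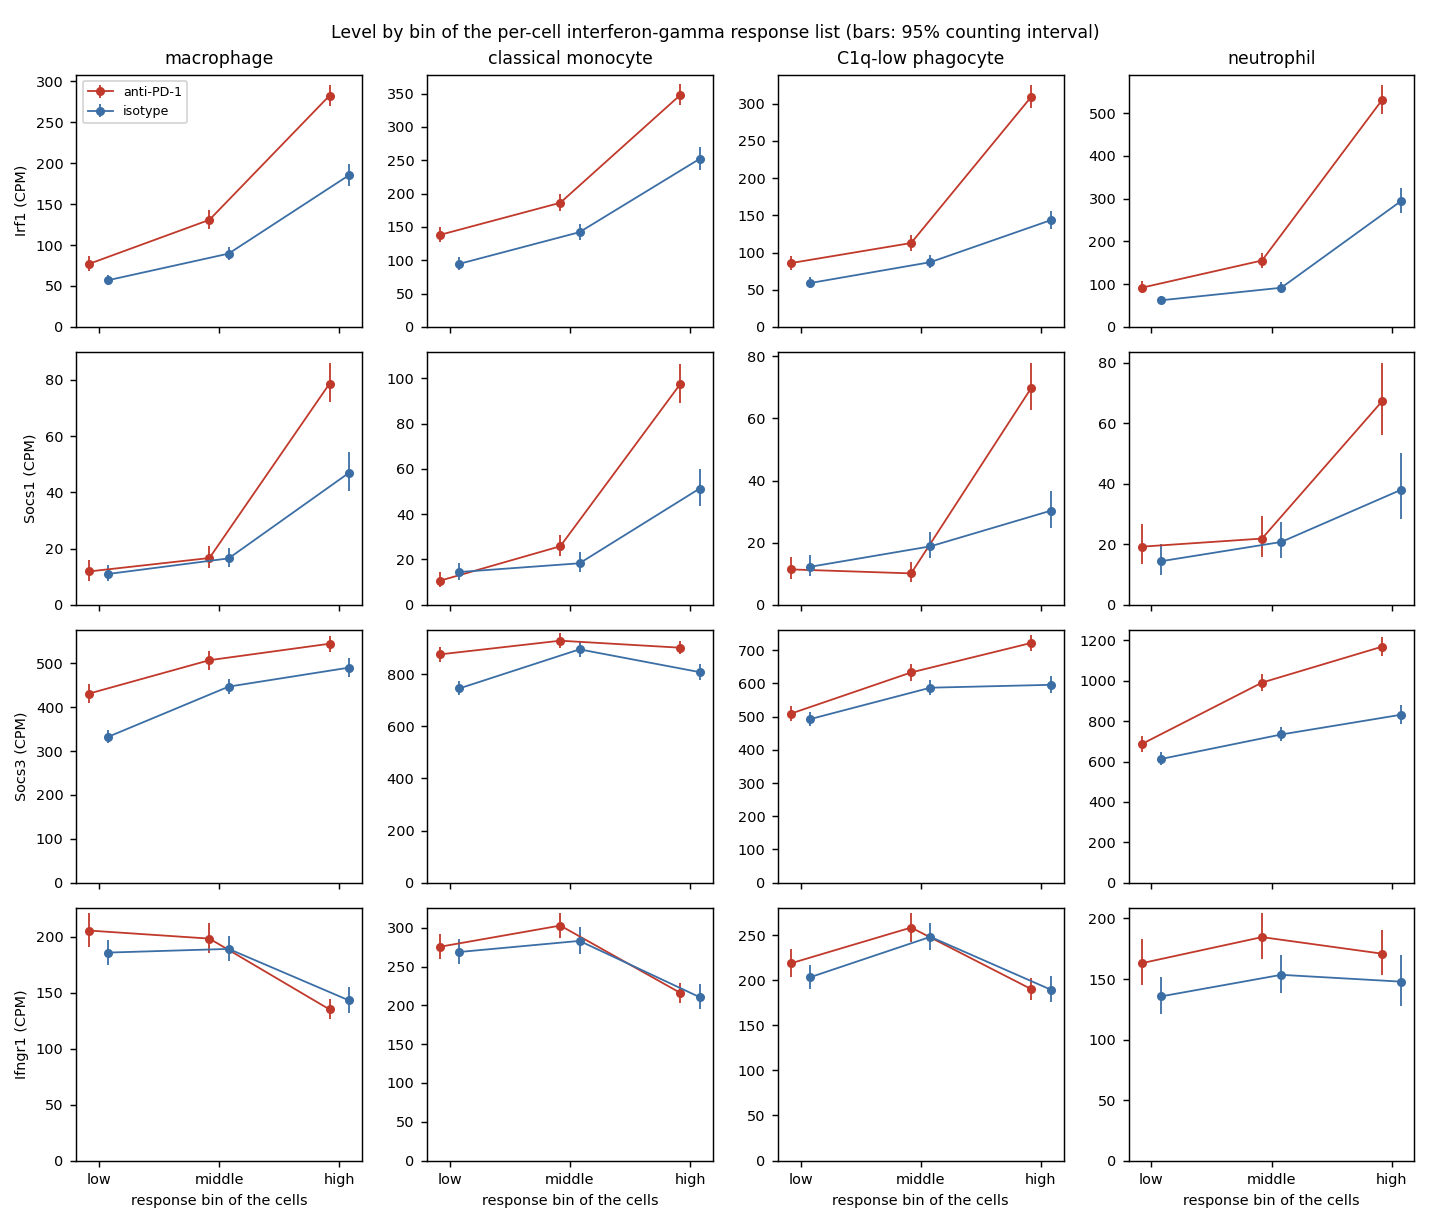
Level (vertical axis, CPM) of Irf1, Socs1, Socs3 and Ifngr1 (rows) in the low, middle and high bin of the interferon-gamma response list (horizontal axis), in 4 marker gates (columns); red is the anti-PD-1 library, blue the isotype library, and bars are exact Poisson 95% intervals. Socs1 of the libraries overlaps in the low bin and parts in the high bin, while Irf1 is apart in each bin.

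The ligand gene Ifng, named because it starts the pathway, was counted almost only in T and NK gates. It had 676 CPM in anti-PD-1 and 772 CPM in isotype NK cells, 664 and 709 CPM in CD4 T cells, and 315 and 368 CPM in CD8 T cells. Regulatory T cells had 39.9 and 251 CPM, from 24 and 120 UMIs, a log2 ratio of -2.65 (-3.35 to -2.01). In that gate 9 macrophage markers summed to 371 CPM in the anti-PD-1 library, with 2 of them at 0, and 2.09 CPM in the isotype library, with 8 at 0, and their part in this value was not tested. Macrophages had 0 and 9 Ifng UMIs. As CPM, Ifng was thus no higher with anti-PD-1 in any T or NK gate compared, while the CD8 T gate held 192 anti-PD-1 and 68 isotype cells.

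Of 50 other genes of the pathway, 47 had enough UMIs in macrophages. Of these, 5 were called higher and 1 lower with anti-PD-1, where 3.18% of all genes were called higher and 1.51% lower. The median log2 ratio of the 47 was 0.17, beside 0.06 for all genes tested. Those called higher in macrophages included Stat2 (0.71) and Irf7 (0.71), both of the type I interferon response, Nlrc5 (0.85), the activator of class I antigen presentation genes, and the cytokine gene Il10 (0.91). Irf4, at -0.77, was the 1 called lower.

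Of the same list, 1 of 48 in classical monocytes was called higher, Csf3 (1.24), and 1 lower, Irf4 (-0.67). Of all genes in that gate, 2.18% were called higher and 1.74% lower. In C1q-low phagocytes 3 of 48 were called higher, Irf7 (0.96) and Il10 (0.76) among them, and none lower, against 3.12% and 1.44% of all genes. In neutrophils 3 of 35 were called higher, Stat2 (0.88) and Irf7 (0.67) among them, and 1 lower, Csf3 (-0.95), against 3.59% and 2.94% of all genes. The medians were 0.12, 0.18 and 0.21, beside 0.05, 0.08 and 0.05 for all genes of those gates. For the 10 smaller gates, the shares of all genes called higher and lower are given in brackets. In NK cells 8 of 21 were called higher and 2 lower (8.34% and 4.6%), and in CD8 T cells 7 of 35 and none (11.3% and 3.94%). In cDC1 it was 6 of 36 and none (9.06% and 2.0%), in CD4 T cells 3 of 39 and 3 (7.71% and 3.72%), and in regulatory T cells 3 of 24 and 3 (8.31% and 7.1%). Non-classical monocytes had 3 of 41 and 1 (3.71% and 1.43%), cDC2 2 of 43 and 1 (5.45% and 2.0%), and migratory DCs 1 of 39 and 1 (3.5% and 3.12%). Other T cells had 1 of 34 and 4 (12.8% and 4.47%), and plasmacytoid DCs none of 28 either way (8.16% and 5.22%).

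Most other pathway genes whose interval left out 0 in macrophages, classical monocytes or neutrophils differed by under 1.5-fold. Over all genes and gates, not matched for level, the interval lay above 0 in 14.5% of pairs and below 0 in 6.63%. The median log2 ratio of all genes was 0.06 in macrophages, 0.05 in classical monocytes and 0.05 in neutrophils, near the smallest values below. Among the IRF genes, Irf2, Irf5 and Irf9 had log2 ratios of 0.33, 0.31 and 0.37 in macrophages, and Irf8, a factor of monocyte and DC development, had 0.46 in macrophages and 0.42 in classical monocytes. Stat5b had 0.46 in neutrophils and Stat6 had 0.15 in macrophages. Of the SOCS family, Socs2 had -0.30 in macrophages and -0.48 in classical monocytes, opposite in sign to Socs1 and Socs3. Among the receptors, Ifnar1 had 0.22, Il10ra 0.34, Il10rb 0.19, Il21r 0.43, Il2rg 0.28 and Csf2ra 0.19 in macrophages, while Csf2rb had 0.08 and Ifnar2 0.12 in classical monocytes. The phosphatase genes Ptpn1, Ptpn6 and Ptpn11 had 0.15, 0.25 and 0.28 in macrophages. Of the cytokines, Il6 had 0.40, Lif 0.33 and Osm 0.23 in macrophages. Ciita, the activator of class II genes, had 0.25 in macrophages and 0.52 in classical monocytes, Crebbp had 0.29, Tyk2 0.33 and Pias4 0.34 in classical monocytes, and Ep300 had 0.37 in neutrophils.

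**Figure D5:**
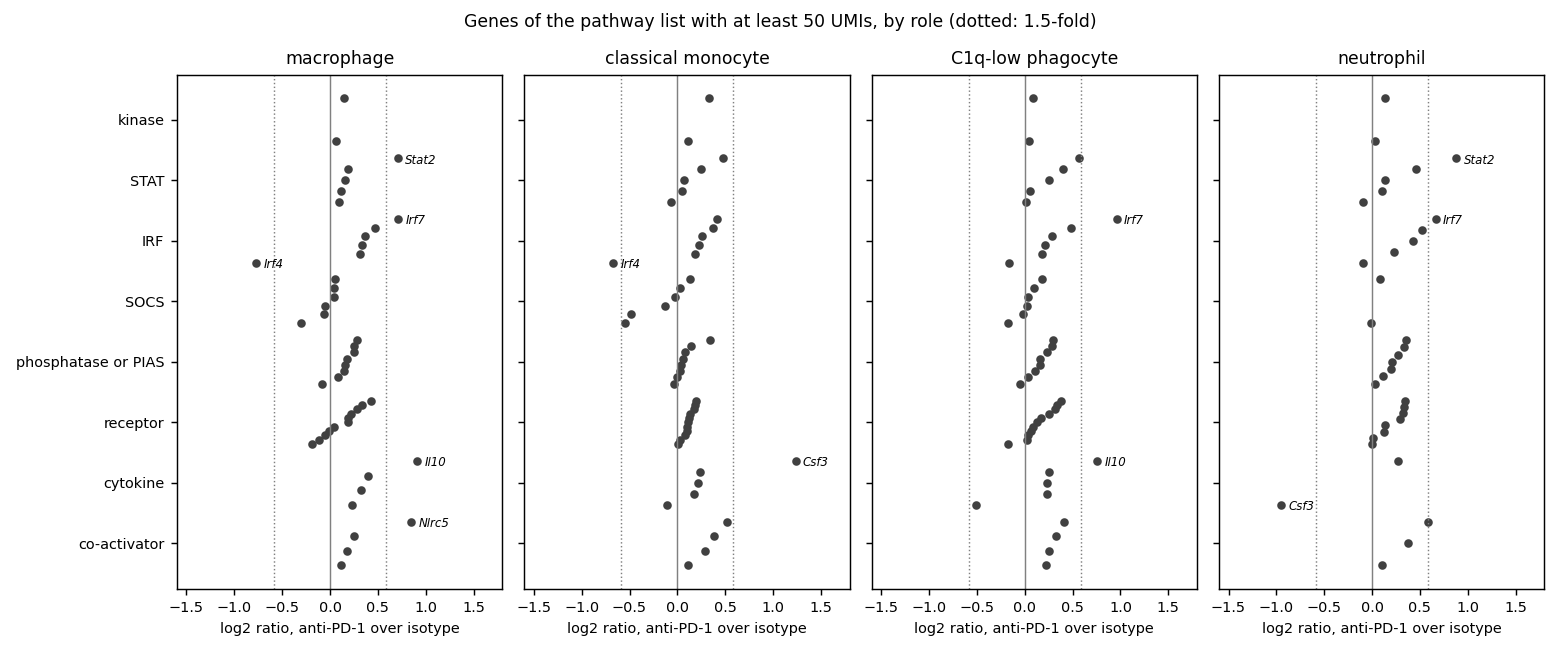
Log2 ratio, anti-PD-1 over isotype (horizontal axis), of the other pathway genes with at least 50 UMIs, by role (rows) in 4 marker gates (panels); each point is a gene, 1 gene of the list is not drawn, the dotted lines mark 1.5-fold, and genes at or past them are named. Irf7 is named in 3 of the panels and Irf4 lies to the left of 0 in macrophages and classical monocytes.

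Genes taken as downstream of interferon-gamma or of STAT3 were counted beside the members. Of the 21 interferon-gamma response genes, 20 had enough UMIs in macrophages, 16 were called higher and 0 lower, with a median log2 ratio of 1.14. Of all genes in that gate, 3.18% were called higher. In neutrophils 15 of 18 were called higher, with a median of 1.22, where 3.59% of all genes were. In regulatory T cells 0 of 14 were called higher and 5 lower, with a median of -0.34, where 8.31% of all genes were called higher and 7.1% lower. Of 10 genes taken as STAT3 targets, 2 were called higher in macrophages, Il10, also counted in the pathway list, and Fgl2 (0.67), with a median of 0.28. In neutrophils 0 of 9 were called higher, with a median of 0.25. Whether the lists read separate signals was not tested.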

How the data were processed

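The authors deposited, per library, a matrix of UMI counts per gene and cell (raw counts, unnormalized), with a dense table of the same counts that was read only for the 8 genes and matched in every value. Cell Ranger is given as version 5.0.1 per the file headers and as 2.1.1, with build mm10, per the submitters' processing notes. Both libraries were made with a 3′ kit, so levels of different genes are not comparable.

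Barcodes with at least 500 UMIs, 200 genes and at most 10% mitochondrial UMIs were kept, and those with a Scrublet doublet score above 0.25 were removed (303 anti-PD-1 and 288 isotype); the automatic threshold had marked 1 barcode per library, so 0.25 was set with the scores in view. Cells were gated by the number of distinct markers detected, with thresholds set after looking at the markers. UMIs were summed per gate and library and given as CPM with exact Poisson 95% intervals. Ratios have exact conditional binomial intervals and shares Clopper-Pearson intervals, after thinning to 1000 UMIs per cell. All 3 cover counting error only, as cells of 1 library are no replicates. A count of 0 is read against a floor of 3 UMIs. No test between groups was made. Pathway genes are named where their interval leaves out 0 in macrophages, classical monocytes or neutrophils, and like genes as the 3 of highest r; Ifng and genes called in C1q-low phagocytes were named after their values were seen. The 8 genes, the gene lists and the named genes' rule were chosen with earlier results of these data known. Some genes that these rules would name are not reported here. The calculation was checked on simulated counts. Tools were Python 3.11.15, numpy 2.4.6, scipy 1.17.1, scanpy 1.11.5 and, for TMM scaling, edgeR 4.0.16 in R 4.3.3.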

Additional observations from a re-analysis of the deposited data

Results flagged for a closer look

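For Ifngr1 and Jak1 the intervals of the ratio lay on opposite sides of 0 in different cell types, which drew attention to them; the difference between cell types was not tested. The log2 ratio of anti-PD-1 over isotype for Ifngr1 was 0.28 in CD8 T cells and -0.64 in plasmacytoid DCs. For Jak1 it was 0.45 in cDC1, -0.37 in regulatory T cells, -0.44 in other T cells and -0.55 in plasmacytoid DCs. In the regulatory T gate, general monocyte and macrophage markers summed to 1642 CPM with anti-PD-1 and 244 CPM with isotype, and their part was not tested. In the cDC1 gate, macrophage markers summed to 36.3 CPM with anti-PD-1 and 289 CPM with isotype, and their part was not tested. The gates involved are small, from 54 to 192 anti-PD-1 and from 54 to 131 isotype cells.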

How the results depend on the processing

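No paired analysis was possible because each group is 1 library with the same single replicate number, and no replicate could be left out. Of 1027 recomputed ratios over 111 gene and gate pairs, 965 stayed inside the counting interval of the reported value and 59 left it. In the other 3 a ratio whose interval had left out 0 changed sign, all after thinning to 1000 UMIs per cell, where few UMIs are left: -0.011 for Ifngr1 in CD8 T cells, -0.69 for Ifngr2 in cDC1 and -0.39 for Stat3 in migratory DCs. Of the 59, 41 came with thinning and 9 with a stricter gate. Thinning called 20 pairs higher in place of 9 and 10 lower in place of 1, and the other settings called between 8 and 12 higher. The shares of all genes called are given only for the setting used in Results. The called counts in this paragraph thus show only the dependence on the setting. With thinning, 5 of 8 genes kept their highest gate, against 7 with a stricter gate (without Ifngr2) or averaged cells (without Socs3). The 1 pair called lower became 2 with TMM scaling and 0 with averaged cells or a stricter gate, and the cause was not tested. TMM shifted ratios by -0.12 in cDC1, -0.11 in other T cells and -0.10 in cDC2, and by less elsewhere. Intervals of the shares of cells did not overlap between the libraries in 6 pairs, in 10 with thinning to 2000 UMIs and in 11 unthinned. No such share over all genes is given beside them, so these counts show only the dependence on thinning. Over the 4 phagocyte gates, 12 pathway pairs were called higher and 3 lower; a lower fold threshold gave 43 and 6 and a fold of 2 gave 1 and 0, by construction, and a minimum of 10 UMIs gave 8 lower. The 3 settings that left out shared barcodes, immature neutrophils or phagocytes with neutrophil markers were chosen after seeing the data.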
